A study of Homo sapiens with 8 samples.

Results

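Peaks of N6-methyladenosine (m6A) on the messenger RNAs of translation factors and aminoacyl-tRNA synthetases were described in 2 human osteosarcoma cell lines. Members were chosen by gene name alone: names of the EIF1 to EIF6, EEF1 and EEF2 families, ETF1, GSPT, EPRS, FARSA and FARSB, and the synthetases written as 1 amino acid letter other than E or P followed by ARS or ARS2, leaving out names that start with EIF2C. The mitochondrial enzymes EARS2 and PARS2 are therefore not members and were counted among other translation genes. This gave 76 genes of the 8758 with a peak in any list. They comprised 32 initiation factors, 10 elongation and release factors, 7 kinases and repressors of translation, 17 cytosolic synthetases and 10 mitochondrial synthetases. Synthetases were put in the mitochondrial role by a name ending in ARS2 alone. The assay was MeRIP-seq, in which fragments pulled down by an m6A antibody are sequenced beside input RNA.

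U2OS and 143B are established osteosarcoma lines. Per the labels, each line was infected with lentivirus carrying either a control short hairpin RNA (NC) or a hairpin against METTL14 (shMETTL14), and all cells were grown in DMEM with serum. METTL14 is the partner of METTL3 in the complex that writes m6A, and the study asked which peaks differ between NC and shMETTL14. Each of the 4 combinations had 1 input and 1 immunoprecipitated library, 8 in all, and 1 peak list, so no difference between NC and shMETTL14 had a replicate check and no test between conditions was made. The read depth behind the peaks is unknown, and peak lists hold no RNA level of METTL14 by which the knockdown could be checked.

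Translation starts when initiation factors bring the small ribosomal subunit and the initiator tRNA to the capped end of a messenger RNA. Elongation factors then deliver charged tRNAs and move the ribosome, and release factors end the chain at a stop codon. Synthetases join each amino acid to its tRNA, in most cases with separate enzymes serving mitochondria. Kinases of the EIF2AK family phosphorylate initiation factor 2, EEF2K phosphorylates the elongation factor EEF2, and EIF4EBP proteins hold back the cap-binding protein EIF4E. The initiation factor complex eIF3 is also known as a protein that can bind m6A near the start of a messenger RNA.

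Many messenger RNAs of the translation machinery start with a terminal oligopyrimidine tract (TOP), a C followed by a run of C and T through which mTORC1 signalling controls their translation. The rule did not use this feature, and it is shown because it marks a subset of the members at the sequence level. A tract was counted where the annotated start base was C and the next 4 bases or more were C or T, read on the sense strand. Of 59 members matched to a RefSeq start window (build GRCh38.p14), 8 had such a tract (13.6%). The same tract stood in 1104 of 27305 windows of all genes (4.04%), and in 366 of the 7102 genes of the lists that matched a window (5.15%). The letters below run from 12 bases before the annotated start to 18 bases from it, with the tract in capitals.
EEF1A1, which carries charged tRNA to the ribosome (chr6:73521015-73521044, minus strand): gccgtgaacgttCTTTTTCgcaacgggttt
EEF2, which moves the ribosome along (chr19:3985446-3985475, minus strand): gacgtcagcgttCTCTTCCgccgtcgtcgc
EIF2A, an alternative carrier of initiator tRNA (chr3:150546775-150546804, plus strand): cccgagcggtttCTCTTTCCgggacaacat
EIF2S3, the gamma subunit of initiation factor 2 (chrX:24054944-24054973, plus strand): gtgatttccttcCTCTTTTggcaacatggc
EIF3D, an eIF3 subunit (chr22:36529149-36529178, minus strand): cgcgcatgtttcCTCTTTTCCTggtttctc
EIF3F, an eIF3 subunit (chr11:7987325-7987354, plus strand): cgcttccgcctcCTTCTTTCTCgacaagat
EIF4A2, an RNA helicase (chr3:186783565-186783594, plus strand): gggcgccgctgtCTTTTCagtcgggcgctg
EIF4B, a cofactor of that helicase (chr12:53006444-53006473, plus strand): cctcatccgggtCTTTTgcgttctctttcc

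The members held 416 peaks on 67 genes in the U2OS NC list, 430 on 66 in U2OS shMETTL14, 410 on 72 in 143B NC and 426 on 72 in 143B shMETTL14, of 32353, 29992, 33082 and 35195 peaks in the same order. Isoforms repeat a locus in the lists, so peaks of 1 gene are not independent. Joining the overlapping peaks of a gene gave 118, 110, 119 and 127 member sites. No member peak overlapped a peak of another gene name on its strand. EIF4G1 and EIF4G3, scaffold proteins that tie the cap-binding protein to the ribosome, together made up 26.9%, 27.2%, 23.2% and 23.9% of the member peaks. Of the bone markers, RUNX2, COL1A1 and SPARC had a peak in at least 1 list, while SP7, ALPL, COL1A2 and BGLAP had none, and peaks do not measure RNA level.

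Member peaks were less enriched than the lists as a whole but had lower p-values. The fold enrichment is the authors' linear ratio per peak and is used here only within a list, as is their p-value per peak. Its median over member peaks was 2.57 in U2OS NC against 3.6 for all peaks, 2.47 against 3.54 in U2OS shMETTL14, 2.445 against 3.795 in 143B NC and 2.58 against 3.59 in 143B shMETTL14. The median p over member peaks was 2.48e-10 against 3.55e-06 for all, then 2.58e-09 against 2.51e-06, 3.16e-11 against 7.08e-06, and 1.42e-15 against 5.75e-07.

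In each list the share of member peaks in the 3' UTR was below that of all peaks, and the share across the start codon above it; these differences were not tested. Peaks within the 3' UTR made up 54 of 416 member peaks in U2OS NC against 22.7% of all, 12.1% against 22.4% in U2OS shMETTL14, 14.4% against 25.0% in 143B NC and 17.1% against 25.0% in 143B shMETTL14. Peaks across the start codon made up 7.21%, 11.4%, 6.59% and 10.3% of member peaks, against 4.91%, 4.92%, 5.33% and 5.17% of all. Peaks within the coding sequence were the largest class in every list, from 53.1% to 58.4% of member peaks.

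Most translation genes kept a peak whichever hairpin the cells carried. Of the 76 members, 60 (78.9%) had a peak in all 4 lists, against 51.0% of all listed genes. Peaks were called lost where an NC peak had no shMETTL14 peak of the same line overlapping it by at least 1 bp of its spliced blocks on the same strand, and gained for the reverse. Neither word stands for a tested difference in methylation, and RNA levels, which bear on whether a peak is listed, were not analysed here. No peak was lost or gained in either line on 35 members: 16 initiation factors, 5 elongation and release factors, 11 cytosolic synthetases, 3 mitochondrial synthetases and no kinase or repressor. These 35 were 46.1% of the members, against 23.6% of all listed genes, a difference that was not tested.

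**Figure D1:**
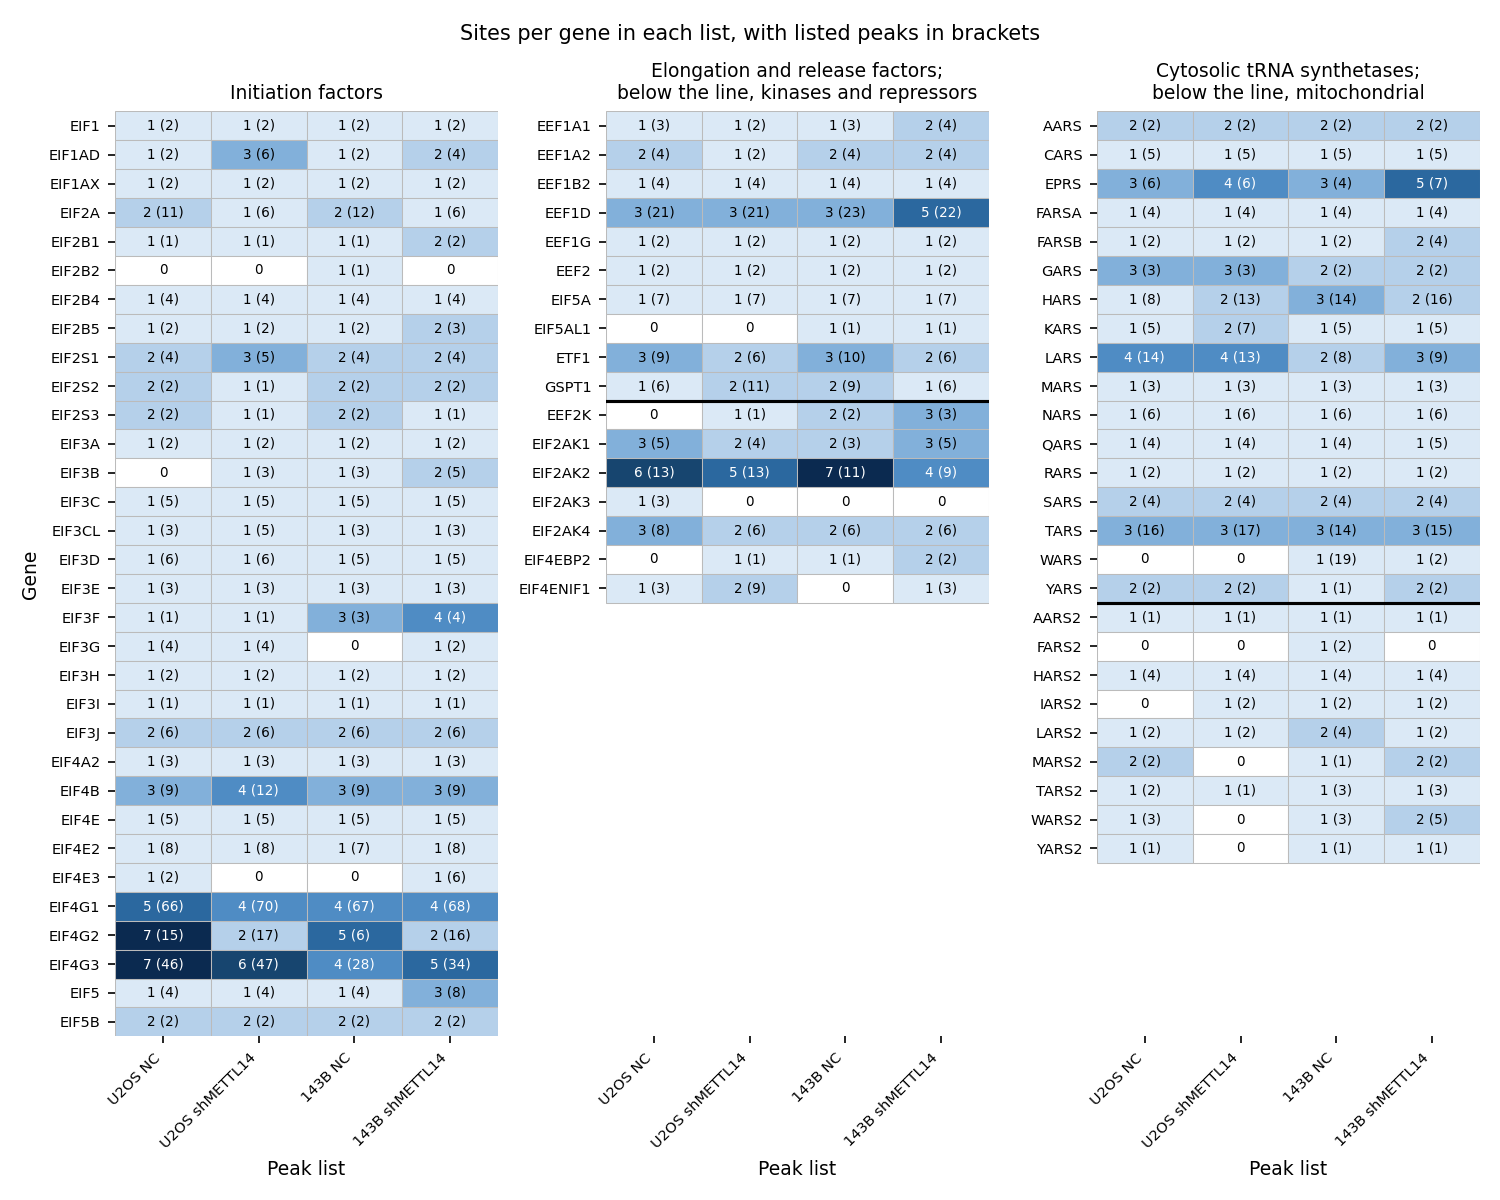
Sites per gene (colour and first number) with listed peaks in brackets, for the members (rows, 1 not shown) in the 4 peak lists (columns), grouped by role. Most rows are even from left to right, and white cells for MARS2, WARS2 and YARS2 stand in the U2OS shMETTL14 column. EIF4G2 has 7 sites in the control list of U2OS against 2 under the METTL14 hairpin, at the same places of the gene.

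In U2OS, 43 of 416 member peaks were lost (10.3%, exact 95% interval 7.58 to 13.7), against 26.9% of all peaks of the list, and 44 of 430 were gained (10.2%, 7.53 to 13.5), against 20.9%. In 143B, 37 of 410 were lost (9.02%, 6.43 to 12.2), against 20.7%, and 74 of 426 were gained (17.4%, 13.9 to 21.3), against 27.3%. The member share was below that of the whole list in all 4 comparisons. These intervals cover counting error alone, as if the peaks of a gene were independent. Counted as sites, 19 of 118 were lost and 16 of 110 gained in U2OS (16.1% and 14.5%), against 31.1% and 24.9% of all sites. In 143B, 18 of 119 sites were lost and 31 of 127 gained (15.1% and 24.4%), against 24.5% and 32.0%. With both lists of 143B limited to peaks at or below the median p of the NC list, the order turned for lost peaks, with 45 of 307 member peaks (14.7%) against 12.2% of all, and 19 of the 45 were on WARS.

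The authors' p-value of a peak moved with these shares. With each list cut by p into 4 equal bins, the bin with the lowest p held 44.5%, 40.5%, 49.5% and 52.1% of the member peaks, in the list order above. Within that bin, 0 of 185 member peaks were lost in U2OS and 0 of 174 gained, 0 of 203 were lost in 143B and 3 of 222 gained. The same shares over all peaks of the bin were 0.396%, 0.187%, 0.496% and 0.421%. In the bin with the highest p, 24 of 50, 20 of 51, 16 of 52 and 29 of 55 member peaks were lost or gained, against 60.0%, 50.9%, 48.8% and 60.2% of all. The order turned in the second bin of 143B, where 14 of 104 member peaks were lost (13.5%) against 7.34% of all, and 14 of 87 gained (16.1%) against 11.3%. It turned also in the first bin for gained peaks of 143B (1.35% of members), and in the third bin for gained peaks, with 27.9% against 25.7% in U2OS and 45.2% against 37.4% in 143B.

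**Figure D2:**
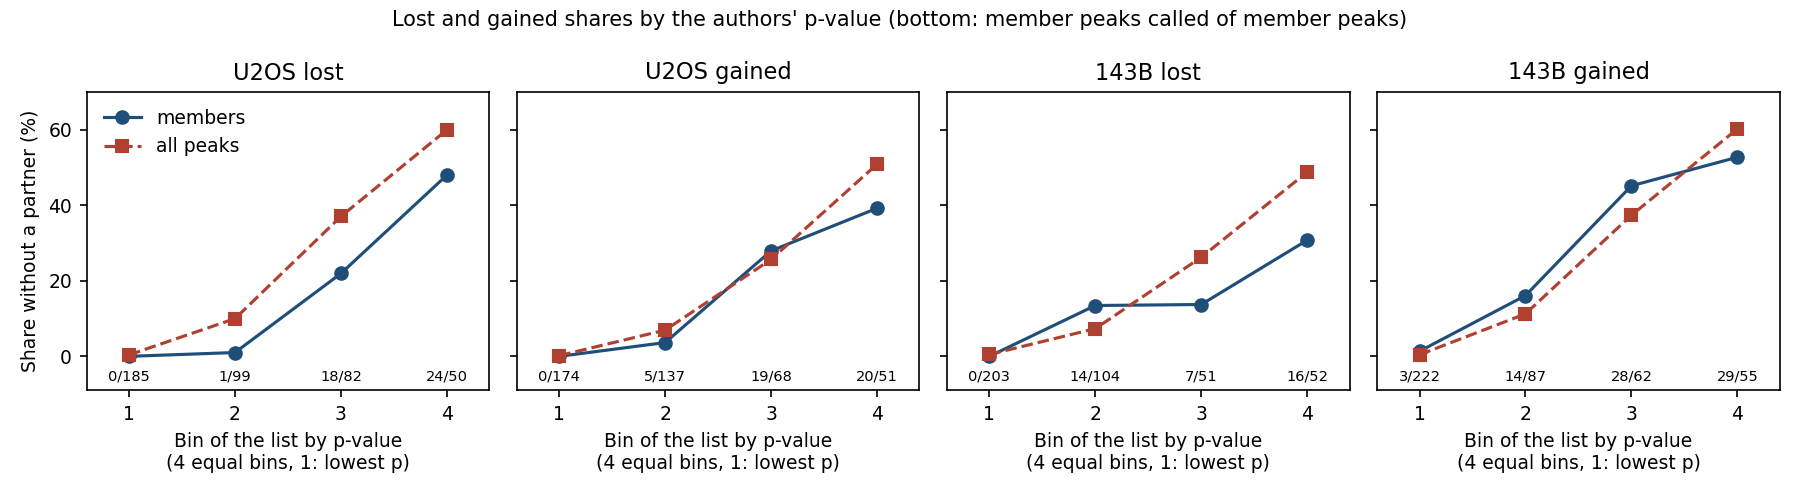
Share of peaks lost or gained (vertical axis, %) in 4 equal bins of each list ordered by the authors' p-value (horizontal axis, 1 is the lowest p), for members (circles) and all peaks (squares), with the member counts below. Both lines climb from near 0 in the first bin to between 30.8% and 60.2% in the fourth, and they cross in 3 of the 4 panels.

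The shares lost and gained are given by role, to be read against 26.9% lost and 20.9% gained over all peaks in U2OS, and 20.7% and 27.3% in 143B. Initiation factors had the lowest lost shares, 13 of 225 peaks in U2OS (5.78%) and 11 of 198 in 143B (5.56%). Cytosolic synthetases lost 8 of 86 in U2OS (9.30%) and 8 of 99 in 143B (8.08%), and elongation and release factors 8 of 58 (13.8%) and 6 of 65 (9.23%). Mitochondrial synthetases lost 6 of 15 in U2OS (40%) and 8 of 25 in 143B (32.0%), the highest share in each line. Gained shares ran from 1 of 57 peaks of elongation and release factors (1.75%) to 11 of 34 of kinases and repressors (32.4%) in U2OS. In 143B, kinases and repressors also had the highest gained share, 7 of 28 (25.0%), and mitochondrial synthetases the lowest, 3 of 20 (15.0%). The 25.0% of kinases and repressors in 143B was close to the share over all peaks. The differences between roles were not tested, and the intervals of the small roles are wide.

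**Figure D3:**
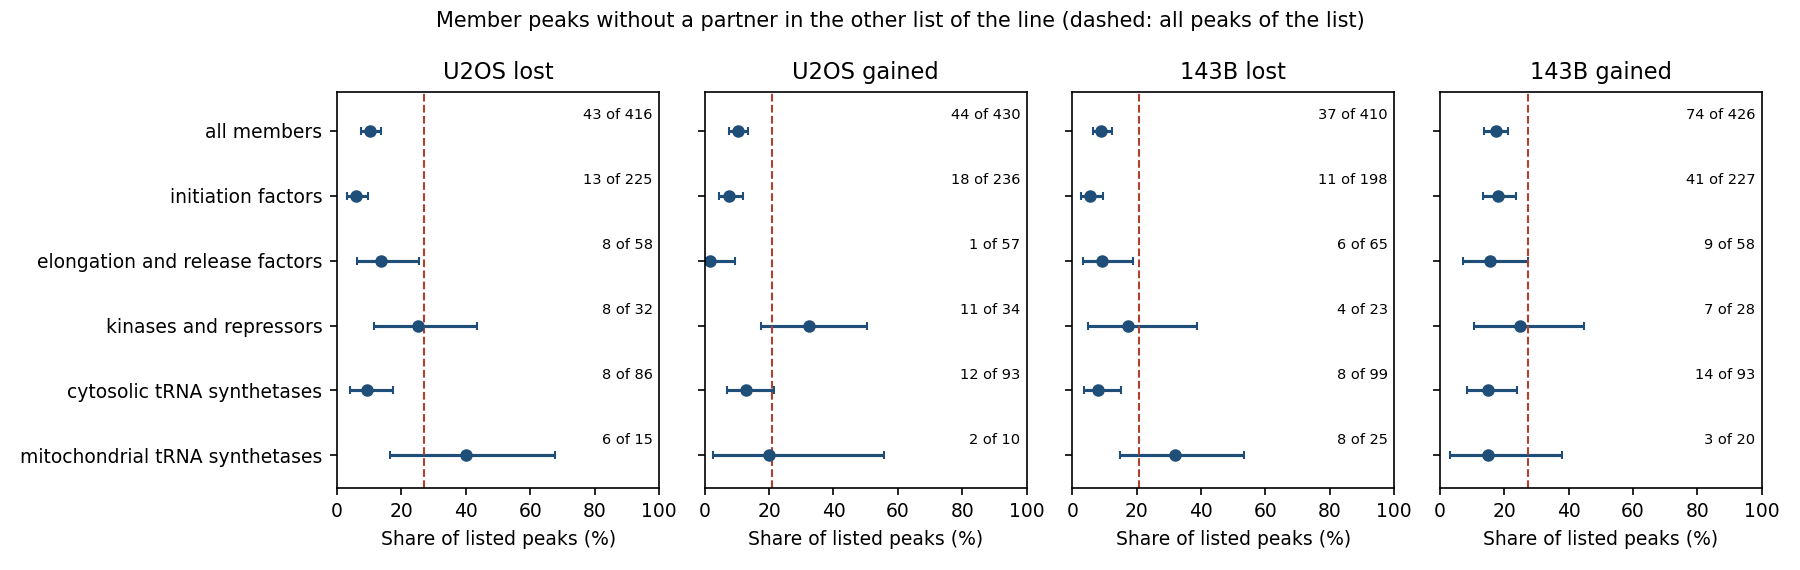
Share of listed member peaks without a partner in the other list of the line (horizontal axis, %), by role (rows) and comparison (panels); points are shares, bars exact 95% intervals, and the dashed line the share over all peaks. Initiation factors sit left of the dashed line in all 4 panels. Mitochondrial synthetases sit right of it for lost peaks (40% and 32.0%), with bars that cross it.

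To follow each locus across lines, overlapping peaks of a gene were joined over the 4 lists into 157 places. Of these 76 were present in all 4 lists (48.4%, 40.4 to 56.5), against 30.2% of the 18923 places of all genes, and 42 in 1 list only (26.8%), against 37.8%. By role, 37 of 61 places of initiation factors were in all 4 lists, 10 of 21 of elongation and release factors, 19 of 39 of cytosolic synthetases, 4 of 13 of mitochondrial synthetases and 6 of 23 of kinases and repressors. The places in all 4 lists had a median spliced length of 450.5 nt and 23 of the 76 touched the stop codon (30.3%). The 81 places in 1 to 3 lists had a median of 181 nt, 7 touched the stop codon (8.64%) and 31 lay in the 3' UTR only (38.3%). Over all genes the shares touching the stop codon were 35.8% and 10.9%. A place joined over more lists is longer by construction. It also carries the regions of all its joined peaks, so it touches the stop codon more readily and is less readily in the 3' UTR only.

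**Figure D4:**
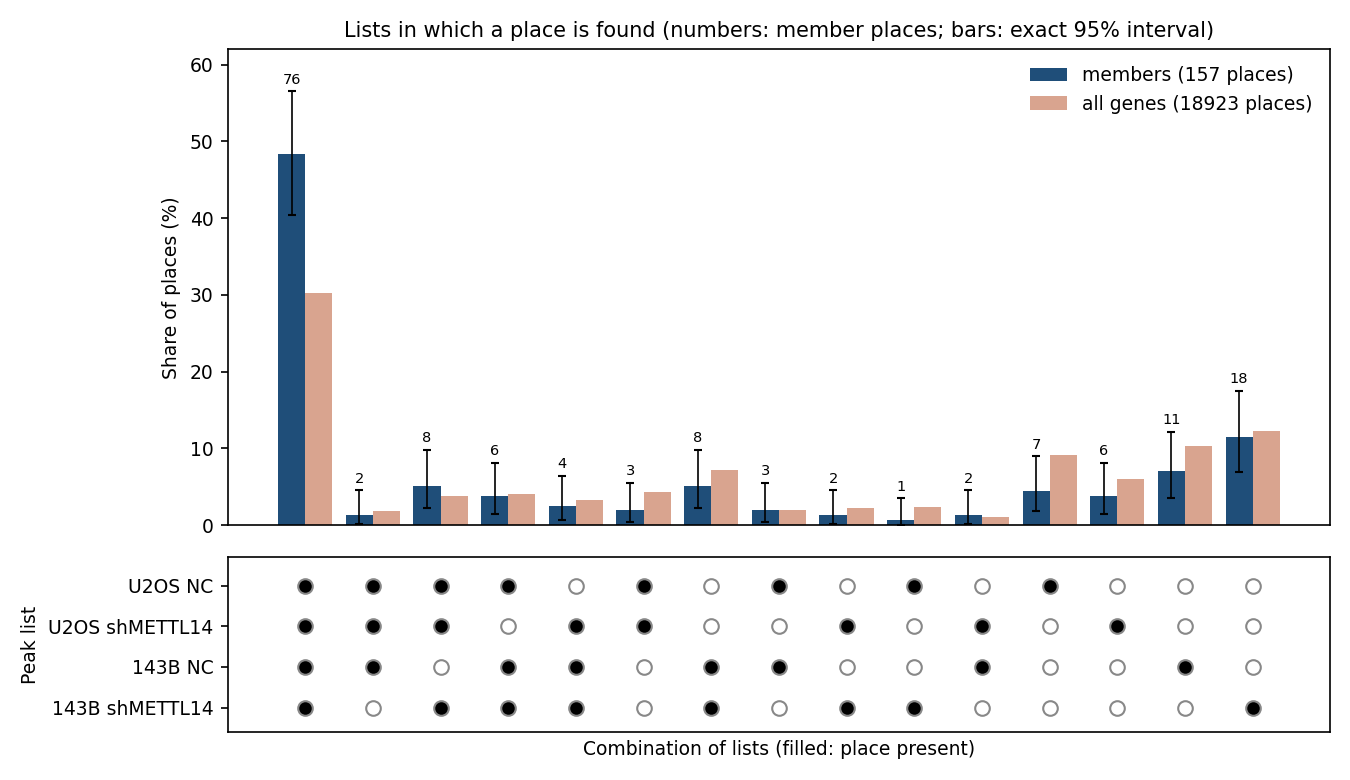
Share of places (vertical axis, %) found in each combination of the 4 lists (filled circles below), for members (dark bars, 157 places, with their number and exact 95% interval) and all genes (light bars, 18923 places). Places present in all 4 lists stand out, 76 for the members (48.4%) against 30.2% of all.

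Among initiation factors, EIF3A, EIF3J, EIF5B and EIF4G1 neither lost nor gained a peak. EIF3A, the large scaffold subunit of eIF3, had 2 peaks at 1 site across its stop codon in every list, with a fold enrichment of 6.92 in U2OS NC, 6.08 in U2OS shMETTL14, 6.72 in 143B NC and 6.32 in 143B shMETTL14. Its p-values of 1e-188, 1e-198 and 1e-263 were the lowest of any member in the first 3 lists. In 143B shMETTL14, 8 member peaks were listed with a p of 0, that of EIF3A among them. EIF5B, the GTPase that joins the ribosomal subunits, had its 2 sites in all lists, and the one across the start codon had a fold enrichment of 8.42, 8.05, 8.63 and 9.34. EIF3J, a loosely bound eIF3 subunit, kept 6 peaks at 2 sites in each list. EIF4G1 had 66, 70, 67 and 68 peaks, and none was lost or gained in either line.

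EIF4G2, a relative of EIF4G1 that works without the cap-binding protein, had 15 peaks at 7 sites in U2OS NC, 17 at 2 in U2OS shMETTL14, 6 at 5 in 143B NC and 16 at 2 in 143B shMETTL14. Its number of sites was thus lower with the METTL14 hairpin in both lines, while its peaks were not fewer. Joined over the lists, the U2OS peaks lay at the same 2 places, with 5 and 10 in NC and 5 and 12 in shMETTL14. All 6 peaks of 143B NC lay at 1 place, which held 11 in 143B shMETTL14. The lower number of sites is therefore one of joining within a place, not of places lost. None of the EIF4G2 peaks was lost, and 10 were gained in 143B, 5 of them at a coding place with a fold enrichment of 1.44 that was in every list but 143B NC. At 1 place in its 5' UTR and across the start codon (hg19 chr11:10828816-10830487, minus strand) the lowest p was 1.70e-07 in U2OS NC, 6.92e-09 in U2OS shMETTL14, 0.000724 in 143B NC and 1.26e-18 in 143B shMETTL14, where the highest fold enrichment was 2.79. Of the 6881 143B shMETTL14 peaks with a p of 3.98e-18 or below, 11 were gained, 3 of them on EIF4G2. With a partner within 100 bp, or with whole spans, 6 of its 16 peaks in 143B shMETTL14 were gained in place of 10, and 1 of those 3.

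EIF4G3 had 46 peaks at 7 sites, 47 at 6, 28 at 4 and 34 at 5, in the same list order. Of these 4 were lost and 7 gained in U2OS, and 4 lost and 12 gained in 143B. The 7 gained in U2OS lay at 1 coding place 27 bp from the nearest U2OS NC peak of the gene and were no longer gained when a partner within 100 bp counted (0 of 47). EIF1AD, which matches by name and has a domain like that of the scanning factor EIF1A, had 1 site in U2OS NC, 3 in U2OS shMETTL14, 1 in 143B NC and 2 in 143B shMETTL14, all in its 3' UTR, with a highest fold enrichment of 12.8, 15.3, 24.8 and 31.0. EIF5, which triggers GTP hydrolysis by initiation factor 2, had 1, 1, 1 and 3 sites. The added sites were across the stop codon (fold enrichment 1.39) and in the 3' UTR (5.91), beside a coding place at 7.21, 7.34, 4.39 and 5.47 in the 4 lists.

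EIF2A lost the same place in both lines. The place lies in the coding sequence (hg19 chr3:150289817-150290058, plus strand, 242 nt) and carried 5 peaks in U2OS NC, 0 in U2OS shMETTL14, 6 in 143B NC and 0 in 143B shMETTL14. Its fold enrichment was 1.58 in U2OS NC and 1.94 in 143B NC, with a p of 0.00102 and 2.51e-11. In 143B NC, 42 of the 8390 peaks with a p that low were lost (0.501%), and in U2OS NC 6802 of 29436 (23.1%). The next place of EIF2A, which reaches from its coding sequence to its stop codon, held 6 peaks in every list. The shMETTL14 peak nearest to the lost place was 205 bp away in U2OS and 130 bp in 143B. With both lists limited to peaks at or below the median p of the NC list, which leaves out the U2OS peaks of the lost place, 0 of 6 EIF2A peaks were lost in U2OS and 6 of 12 in 143B.

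EIF3B, an RNA-binding subunit of eIF3, had 0, 3, 3 and 5 peaks, so that it was gained in U2OS. The place across its start codon had a fold enrichment of 2.57, 2.67 and 2.14 in the 3 lists that held it. EIF3G, another eIF3 subunit, had 4, 4, 0 and 2 peaks. Its coding place at hg19 chr19:10229386-10229838 was in both U2OS lists and in neither 143B list, and its 2 peaks in 143B shMETTL14 lay at another coding place with a fold enrichment of 1.38. EIF4E3, a cap-binding relative of EIF4E, had 2 peaks in U2OS NC, 0 in U2OS shMETTL14, 0 in 143B NC and 6 in 143B shMETTL14 at 1 coding place, with a fold enrichment of 2.08 and 4.21 where listed. EIF2B2, a subunit of the exchange factor for initiation factor 2, had 1 peak in 143B NC (fold enrichment 2.46) and none elsewhere. EIF3F had 1 site in both U2OS lists, 3 in 143B NC and 4 in 143B shMETTL14, all in the 3' UTR, with a highest fold enrichment of 10.9, 19.6, 18.3 and 18.8. The remaining initiation factors held from 1 to 4 sites in each list.

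Among elongation and release factors, 10 genes held 58, 57, 65 and 58 peaks. ETF1, the release factor that reads stop codons, lost a place in both lines. That place covers its 5' UTR and start codon (hg19 chr5:137865347-137878918, minus strand, 258 nt of spliced sequence) and held 3 peaks in U2OS NC, 0 in U2OS shMETTL14, 4 in 143B NC and 0 in 143B shMETTL14. The fold enrichment was 4.81 in U2OS NC (p = 0.000794 by the authors) and 20.9 in 143B NC (p = 5.01e-11 by the authors), where 1.03% of the list was as enriched. In 143B NC, 56 of the 8622 peaks with a p that low were lost (0.650%), and in U2OS NC 6358 of 28706 (22.1%). Under the limit at the median p of the NC list, 0 of 3 ETF1 peaks were lost in U2OS and 4 of 10 in 143B. That limit leaves out the U2OS peaks of the lost place, so the U2OS count does not bear on them. The other ETF1 places, in the coding sequence and the 3' UTR, held 3 peaks each in all 4 lists, with a 3' UTR fold enrichment of 7.38, 7.26, 4.56 and 5.54.

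EEF1D, a subunit of the exchange factor for EEF1A1, had 21, 21, 23 and 22 peaks at 3, 3, 3 and 5 sites, and 8 were gained in 143B. Its highest fold enrichment was 15.4 in U2OS NC, on a peak in the 5' UTR, and 8.72, 8.48 and 5.17 in the other lists. EEF2 had 2 peaks at 1 site in every list, with a fold enrichment of 2.85, 3.15, 3.61 and 3.18. GSPT1, the GTPase partner of ETF1, had 6, 11, 9 and 6 peaks. Its coding place was in all lists, and a 3' UTR place with a fold enrichment of 6.52 was in 143B NC only. EEF1B2, EEF1G and EIF5A had the same number of peaks in every list, 4, 2 and 7. EEF1A1 and EEF1A2, EIF5A and EIF5AL1, and EIF3C and EIF3CL are near copies of each other or have processed copies, so their peaks are uncertain.

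The 7 kinases and repressors held 32, 34, 23 and 28 peaks, and each had a lost or gained peak in at least 1 line. Most listed genes had one too, as 23.6% of all listed genes had none, and the difference was not tested. EIF2AK2 (PKR), the kinase that senses double-stranded RNA, had 6 sites in U2OS NC, 5 in U2OS shMETTL14, 7 in 143B NC and 4 in 143B shMETTL14. A place in its 3' UTR (hg19 chr2:37333666-37334237, minus strand) was in all lists with a fold enrichment of 4.98, 45.8, 8.26 and 52.1. Only 0.0167% of the U2OS shMETTL14 peaks and 0.0568% of the 143B shMETTL14 peaks were as enriched within their list. Fold enrichments of different lists were not compared, as their scaling is not given in the sources used here. EIF2AK4 (GCN2), the kinase that senses uncharged tRNA, had 3, 2, 2 and 2 sites, and EIF2AK1, the haem-regulated kinase, 3, 2, 2 and 3. EIF2AK3 (PERK), the kinase of endoplasmic reticulum stress, had 3 peaks in U2OS NC, in its coding sequence with a fold enrichment of 3.99, and none elsewhere.

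EIF4EBP2, a repressor of EIF4E, had no place shared by the lists of a line. It had 0 peaks in U2OS NC, 1 in U2OS shMETTL14, 1 in 143B NC and 2 in 143B shMETTL14. A 3' UTR place (hg19 chr10:72187654-72187804) was in both shMETTL14 lists and in neither NC list, with a fold enrichment of 4.90 and 2.18. EIF4ENIF1, which carries EIF4E into the nucleus and represses translation, had 3, 9, 0 and 3 peaks. A coding place was in 3 lists, with a fold enrichment of 3.6, 3.54 and 5.47 and a p of 3.16e-13 in 143B shMETTL14, and 6 peaks across the start codon were in U2OS shMETTL14 only. EEF2K had 0, 1, 2 and 3 peaks, the place across its stop codon being in every list but U2OS NC.

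Of the 20 cytosolic synthetases searched, 17 had a peak and DARS, IARS and VARS had none. AARS, CARS, FARSA (a subunit), MARS, NARS, RARS and SARS, which charge tRNA with alanine, cysteine, phenylalanine, methionine, asparagine, arginine and serine, had the same number of peaks in all 4 lists. TARS, the threonine enzyme, had 16, 17, 14 and 15 peaks at 3 sites in each list, none lost or gained. LARS, the leucine enzyme, had 14, 13, 8 and 9 peaks. Its place across the stop codon (hg19 chr5:145493474-145493770, minus strand) held 4 peaks in each NC list and 0 in each shMETTL14 list, with a fold enrichment of 2.57 in U2OS NC and 2.72 in 143B NC. Of the peaks with a p as low as that of the place, 2425 of 21151 were lost in U2OS (11.5%) and 646 of 16501 in 143B (3.91%). Under the limit at the median p of the NC list, 0 of 4 LARS peaks were lost in U2OS and 1 of 1 in 143B. The U2OS peaks of the lost place are left out by that limit, so the U2OS count does not bear on them. The 143B shMETTL14 list held instead a 3' UTR peak 542 bp away, with a fold enrichment of 16.6 and a p of 5.13e-06. A LARS place at the start of the gene was in both U2OS lists and 143B shMETTL14 and absent from 143B NC.

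EPRS, which charges both glutamate and proline tRNAs, had 3, 4, 3 and 5 sites. Its peaks were weak and many were near one another: the place in both shMETTL14 lists and in neither NC list (hg19 chr1:220178638-220180556, minus strand) had a fold enrichment of 1.74 and 1.89, and lay 29 bp from a peak of 143B NC. HARS, the histidine enzyme, had 8, 13, 14 and 16 peaks at 1, 2, 3 and 2 sites. WARS, the tryptophan enzyme, had no peak in either U2OS list, 19 in 143B NC and 2 in 143B shMETTL14. The 19 and the 2 lay at 1 coding place (hg19 chr14:100826892-100828216, minus strand), with a fold enrichment of 2.29 and 1.71 and a lowest p of 4.79e-07 and 0.000151. None of the 19 was lost at the 1 bp overlap, and 14 were lost when 50% of the shorter peak had to overlap.

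Mitochondrial synthetases had a peak on 7, 5, 10 and 8 of their 10 genes in the 4 lists. Of the 5 members that lost all peaks in U2OS (7.46% of 67, against 16.9% of all genes), 3 were of this role: MARS2, WARS2 and YARS2, the methionine, tryptophan and tyrosine enzymes of mitochondria. The other two were EIF2AK3 and EIF4E3. MARS2 had 2, 0, 1 and 2 peaks, with a fold enrichment of 11.6, 7.17 and 4.88 where listed. WARS2 had 3, 0, 3 and 5 peaks, and its place at the stop codon and 3' UTR had a p of 2.95e-05 in U2OS NC, 1.26e-53 in 143B NC and 5.01e-24 in 143B shMETTL14. YARS2 had 1, 0, 1 and 1 peaks, with a fold enrichment of 4.37, 3.38 and 3.32. All 3 genes were therefore in both 143B lists.

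The 4 members that were gained whole in U2OS (6.06% of 66, against 12.4%) were EEF2K, EIF3B, EIF4EBP2 and IARS2, the mitochondrial isoleucine enzyme, and all 4 were in both 143B lists. In 143B, 3 members had peaks in NC and none in shMETTL14 (4.17% of 72, against 11.8%), among them EIF2B2 and FARS2, the mitochondrial phenylalanine enzyme. Both were in neither U2OS list, and FARS2 had 2 peaks in 143B NC with a fold enrichment of 5.87. The 3 members with peaks in 143B shMETTL14 and none in 143B NC (4.17% of 72, against 15.5%) were EIF3G, EIF4E3 and EIF4ENIF1. EIF4EBP2 was in both 143B lists, but its 1 NC peak was lost there and its 2 shMETTL14 peaks were gained. No member left the lists in both lines or entered them in both lines. Of all listed genes, 1.54% were in both NC lists and neither shMETTL14 list and 1.36% the reverse, so that few were to be counted among 76. EIF4E3 left the lists in U2OS and entered them in 143B.

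AARS2 and TARS2, the mitochondrial alanine and threonine enzymes, had 1 site in the 3' UTR in all 4 lists. The highest fold enrichment of AARS2 was 7.70, 15.8, 6.96 and 34.4, and that of TARS2 was 14.1, 25.1, 7.83 and 28.8. Within their own lists, 0.239% of the 143B shMETTL14 peaks were at or above the AARS2 value and 0.443% of the U2OS shMETTL14 peaks at or above that of TARS2.

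Over both lines, 87 member places were in both NC lists and 3 of these in neither shMETTL14 list (3.45%, exact 95% interval 0.717 to 9.75, against 5.10% of all places), those of EIF2A, ETF1 and LARS described above. Of 90 places in both shMETTL14 lists, 2 were in neither NC list (2.22%, 0.270 to 7.80, against 5.73%), those of EIF4EBP2 and EPRS. Both intervals cover the share over all places. Of the 157 member places, 8 were in both 143B lists and no U2OS list (5.10%, 2.23 to 9.79, against 7.23% of all places). Another 3 were in both U2OS lists and no 143B list (1.91%, 0.396 to 5.48, against 4.31%).

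**Figure D5:**
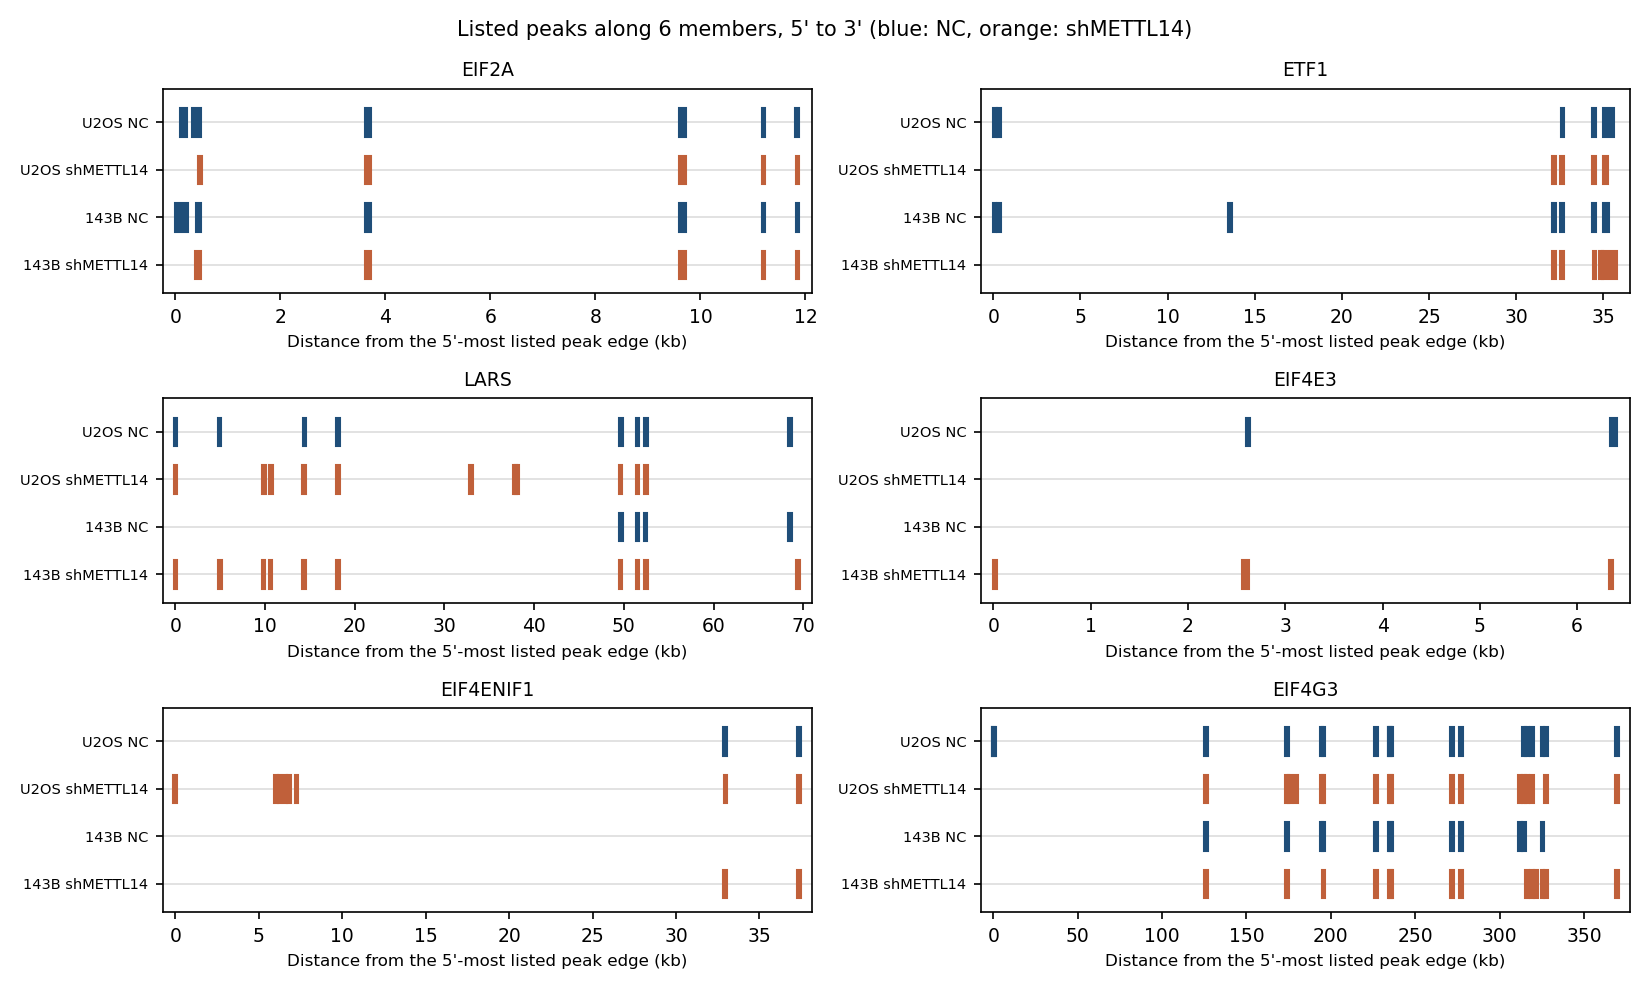
Listed peak blocks of 6 members by distance from the 5'-most listed peak edge (horizontal axis, kb of genome), in the 4 lists (rows; blue NC, orange shMETTL14); short blocks are drawn at a minimum width. The first block of ETF1 and the last blue LARS block have no orange counterpart in either line, and EIF4E3 is empty in U2OS shMETTL14 and 143B NC.

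The members with a TOP start were compared with the other matched members. Over all peaks, 26.9% were lost and 20.9% gained in U2OS, and 20.7% and 27.3% in 143B. In U2OS, 6 of their 37 peaks were lost (16.2%, 6.19 to 32.0), against 26 of 302 (8.61%), and 3 of 33 were gained (9.09%), against 36 of 323 (11.1%). In 143B, 6 of 39 were lost (15.4%, 5.86 to 30.5), against 21 of 302 (6.95%), and 2 of 34 gained (5.88%), against 55 of 321 (17.1%). EIF2A alone gave 5 of the 6 lost in U2OS and all 6 in 143B. As sites, 2 of 12 were lost in U2OS (16.7%), against 12 of 77 for the other matched members (15.6%). In 143B, 1 of 14 sites was lost (7.14%), against 12 of 80 (15.0%). Over all sites, 31.1% were lost in U2OS and 24.5% in 143B. The median fold enrichment of their peaks was 1.85 in U2OS NC against 2.915 for the other members, and 1.94 against 2.61 in 143B NC.

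Lists of other genes of the pathway were described in the same way, beside 26.9% lost and 20.9% gained over all peaks in U2OS, and 20.7% and 27.3% in 143B. Of 23 other translation genes, 20 had a peak, with 10 of 96 lost and 6 of 92 gained in U2OS, and 17.1% lost and 12.2% gained in 143B. PABPC1, the poly(A)-binding protein, had 17, 18, 18 and 18 peaks, none lost or gained. PAIP2, an inhibitor of it, had 5, 0, 5 and 5 peaks, and PAIP1, an activator, 5, 5, 3 and 0. PARS2, the mitochondrial proline enzyme, lost its 1 peak in each line. Of 10 mitochondrial translation factors, 9 had a peak, with 4 of 19 lost and 5 of 20 gained in U2OS, and 4 of 30 lost and 13 of 39 gained in 143B, counts too small to set apart from the shares over all peaks. MTRF1L, a release factor, had 4, 0, 2 and 4 peaks, and its relative MTRF1 0, 0, 0 and 5.

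Of 15 genes of the integrated stress response and of mTORC1, the pathways that act on EIF2S1 and on EIF4EBP proteins, 11 had a peak. In U2OS 8 of 39 peaks were lost (20.5%, against 26.9% of all peaks) and 6 of 42 gained (14.3%, against 20.9%). In 143B 2 of 43 were lost (4.65%, against 20.7%) and 6 of 44 gained (13.6%, against 27.3%). ATF4, the stress transcription factor, had 3 peaks in every list, none lost or gained. MTOR, the kinase of mTORC1, had 2, 0, 2 and 4 peaks.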

How the data were processed

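The peak lists of 4 immunoprecipitated MeRIP-seq libraries were used; groups came from the sample titles, and the 4 input libraries were not used here except through the lists. The submitters' processing notes name Trimmomatic, HISAT2 and FastQC 0.11.5, and the builds hg19 and GRCh37. Which peak caller, threshold and annotation were used is not given in the sources used here, nor is the depth. Per the file headers, each of the 13-column lists gives a peak's position, spliced blocks, gene and transcript part. The p-value per peak and the fold enrichment, a linear ratio, were made and deposited by the authors; some p-values are listed at 0.

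Peaks were matched by at least 1 bp of spliced blocks on the same strand. Intervals of shares are exact (Clopper-Pearson, 95%) and cover counting error. Coordinates are printed from 1. TOP tracts were read from RefSeq start windows of GRCh38.p14, by symbol. The members, roles, gene lists and naming rule were chosen with earlier results of these data known. The text names members that lost or gained all peaks of a line, the 3 with most sites per role, those whose sites differed by 2 or more, those lost or gained at the same place in both lines and the 3 highest fold enrichments per list; EIF3A, EIF5B, EIF3J, EEF2, WARS and genes kept in all lists were added after their values were seen. Some genes of the rule and the lists are counted but not reported by name here.

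Alternatives changed the overlap, the peaks used, the unit, the partner and the geometry, and leaving out EIF4G1 and EIF4G3 was added after seeing the data. The matching was tested on simulated data: of the 11832 U2OS NC sites, 4.99%, 20.3% and 40.1% were removed, and 4.93%, 19.9% and 39.6% came out as lost. The kept sites were exact copies, so this check did not cover peaks whose edges or listing differ between lists. Tools were scipy 1.17.1, pandas 2.3.3 and numpy 2.4.6 under Python 3.11.15, with matplotlib 3.10.9 for plots.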

Additional observations from a re-analysis of the deposited data

Results flagged for a closer look

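For 7 members the number of sites differed between NC and shMETTL14 in opposite directions in the 2 lines; with 1 list per group these differences were not tested. As shMETTL14 minus NC, the difference in sites was -1 in U2OS and 1 in 143B for EIF2AK1, EIF4E3, EIF4G3 and WARS2. It was -2 in U2OS and 1 in 143B for MARS2. For GSPT1 and HARS it was 1 in U2OS and -1 in 143B. EIF4E3 is the member among these with no peak at all in U2OS shMETTL14 and 143B NC, while MARS2 and WARS2 had none in U2OS shMETTL14 only. Some of these differences are of joining within a place. In U2OS, the GSPT1 sites lay within 1 coding place that was in all 4 lists, and the HARS sites within 1 place also in all 4. In 143B, the EIF2AK1 sites lay at places that were in all 4 lists, and 0 of its 5 shMETTL14 peaks were gained. The MARS2 sites of 143B lay within 1 place, and 0 of its 2 shMETTL14 peaks were gained with a partner within 100 bp.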

How the results depend on the processing

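The lost and gained shares of member peaks stayed below those of all peaks under each alternative but 1. With both lists limited to peaks whose p did not exceed the median of the NC list, 143B members lost 45 of 307 peaks (14.7%), against 12.2% of all, and 19 of those 45 were the WARS peaks. Under the same limit U2OS members lost 11 of 284 (3.87%, against 18.9%), 143B members gained 78 of 335 (23.3%, against 27.7%), and the member sites were 72 in U2OS NC and 79 in 143B NC. Requiring 50% of the shorter peak moved the 143B lost share to 13.9% (against 23.7%), 14 of the 57 lost peaks being those of WARS. Member peaks at or above the median fold enrichment of their list were lost in U2OS at 18.75% (18 of 96, against 26.0%). Counted as sites, the shares were 16.1% lost and 14.5% gained in U2OS, and 15.1% lost and 24.4% gained in 143B. Leaving out EIF4G1 and EIF4G3, an alternative chosen after seeing the data, gave 12.8%, 11.8%, 10.5% and 19.1%. The 100 bp window, a partner of the same gene name and whole spans left the shares inside their intervals. For single genes, 572 of 656 recomputed values stayed inside the exact 95% interval of the value they replace, which is wide for a single gene, and 84 lay outside it, 52 of them under the p-value limit. Under that limit the U2OS losses of EIF2A (0 of 6), ETF1 (0 of 3) and LARS (0 of 4) were no longer counted. The limit itself left out the U2OS peaks of these lost places, so it could not check their loss. EIF4G3 had 0 of 47 gained in U2OS and EPRS 0 of 4 lost in 143B with the 100 bp window. No paired analysis was possible because the labels give 1 replicate number and no result comes from a test; NC and shMETTL14 were compared within each line. Depth is unknown, so a peak that is not listed may lie just past the authors' threshold.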
